A study of Mus musculus with 8 samples.

Results

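Neutrophils called immature here, a name taken from granule genes such as Ngp and Camp, were described among the single cells of mouse tongue epithelium. A cell was counted as a member when S100a8 and S100a9 together gave at least 10 unique molecular identifiers (UMIs, the counted mRNA molecules) and at least 3 of the 5 genes Ngp, Camp, Ltf, Cd177 and Ly6g gave at least 1 UMI. Cells also had to hold 200 to 5500 detected genes, at most 30000 UMIs, at most 7% mitochondrial UMIs and under 0.5% of their UMIs in 5 keratin genes. In all, 1127 of 42550 cell barcodes met these terms. The libraries came from sorted, viable cells of the tongue epithelium at day 15 after transgene induction, 2 libraries for each of 4 genotypes. Every group carried Krt14-CreERT and LSL-rtTA, so that tamoxifen given into the tongue and a doxycycline diet switched on tetON transgenes in keratin 14-expressing basal epithelial cells and their progeny, and per the study's methods all mice also carried tetON_H2B-GFP. The N group carried no further transgene, E carried tetON_E6-E7 (the human papillomavirus 16 oncogenes), Y carried tetON_YAP1S127A (a constitutively active YAP), and EY carried both. The neutrophils were therefore host cells in which the Krt14 promoter is not known to be active, and the name of the second N library held 2 animal numbers, so it may pool 2 mice. The study's methods give 2 mice per genotype, but nothing in the labels ties the 2 libraries of a genotype to separate days. The p-values measure the spread between these libraries.

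Neutrophils are made in the bone marrow in steps that can be read from their granules. Promyelocytes fill azurophil granules with myeloperoxidase and serine proteases, myelocytes and metamyelocytes fill specific granules with Ngp, cathelicidin (Camp), lactoferrin (Ltf) and lipocalin 2 (Lcn2), and band cells add gelatinase granules. Cells that leave the marrow normally stop making most of this granule mRNA and gain receptors such as Cxcr2 and Csf3r and inducible cytokines such as Il1b. C/EBP-family factors, C/EBP-epsilon above all, are known to act on specific granule genes, and PU.1 (Spi1) acts across the myeloid lineage.

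Stretches of promoter of the 5 granule genes of the rule are shown because their mRNA defines these cells. They were taken from RefSeq (GRCm38.p6), run up to the base before the first annotated transcript start and are written 5′ to 3′ on the gene's strand. Capitals mark a match to the C/EBP-type motif TTGCNNAA on either strand. The gene bodies are annotated as protein coding in GENCODE at chr9:110419747-110423012 (Ngp, plus strand), chr9:109847379-109849617 (Camp, minus strand), chr9:111019271-111042767 (Ltf, plus strand), chr7:24743983-24760311 (Cd177, minus strand) and chr15:75155240-75159126 (Ly6g, plus strand).
Ngp (chr9:110419558-110419746, plus strand): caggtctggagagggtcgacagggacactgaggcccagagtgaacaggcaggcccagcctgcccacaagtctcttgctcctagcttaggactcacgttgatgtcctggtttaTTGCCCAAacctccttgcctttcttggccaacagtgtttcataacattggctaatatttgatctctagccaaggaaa
Camp (chr9:109849618-109849706, minus strand): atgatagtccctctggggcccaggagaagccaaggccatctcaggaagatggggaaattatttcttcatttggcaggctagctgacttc
Ltf (chr9:111019042-111019270, plus strand): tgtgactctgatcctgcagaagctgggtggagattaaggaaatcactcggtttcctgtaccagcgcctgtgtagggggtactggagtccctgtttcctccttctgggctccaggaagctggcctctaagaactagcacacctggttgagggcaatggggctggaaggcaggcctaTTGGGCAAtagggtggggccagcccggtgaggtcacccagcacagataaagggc
Cd177 (chr7:24760312-24760561, minus strand): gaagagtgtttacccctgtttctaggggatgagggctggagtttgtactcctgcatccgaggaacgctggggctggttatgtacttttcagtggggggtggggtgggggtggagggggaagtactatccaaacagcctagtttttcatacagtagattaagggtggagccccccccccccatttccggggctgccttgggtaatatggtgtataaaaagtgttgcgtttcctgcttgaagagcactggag
Ly6g (chr15:75155011-75155239, plus strand): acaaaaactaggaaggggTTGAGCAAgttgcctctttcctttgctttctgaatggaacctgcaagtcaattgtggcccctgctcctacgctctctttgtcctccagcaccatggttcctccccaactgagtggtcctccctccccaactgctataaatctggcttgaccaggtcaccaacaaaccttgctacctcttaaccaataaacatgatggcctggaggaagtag
The motif was found in the 250 bases before the RefSeq start of Ngp, Ltf and Ly6g, which is 3 of the 5 rule genes, in 1 of 5 further specific granule genes with an entry, and in 9.56% of 32851 mouse promoters. The PU.1-type motif GAGGAAG was found in 1 of the 5 rule genes (Ly6g), in 4 of the same 5 further genes, and in 10.6% of all promoters. These matches describe the sequence windows and were not tested against the expression values.

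The libraries held 46483469 to 102427359 UMIs over 2916 to 8139 barcodes, with medians of 6240 to 11017 UMIs per barcode. Between pairs of libraries 237 barcodes were shared, 17 of them belonged to a member in one library, and none belonged to a member in both. Doublets were not called, and cells over the keratin limit were left out by the rule. Among low-keratin cells with fewer than 10 S100a8 and S100a9 UMIs, which should not be neutrophils, 0.590% held an Ngp UMI in library Y1, 14.4% in EY1 and 5.71% in EY2, at median depths of 6556, 5753 and 3127 UMIs. Cells of the rule held an Ngp UMI in 97.8%, 99.7% and 100% of cases, at median depths of 7455, 9361 and 4827 UMIs.

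Nearly all immature neutrophils came from 3 libraries that carried the YAP transgene. EY1 gave 602 of its 2133 low-keratin cells (28.2%, exact 95% interval 26.3 to 30.2%) and EY2 gave 338 of 1491 (22.7%, 20.6 to 24.9%). Y1 gave 178 of 4342 (4.10%, 3.53 to 4.73%), whereas Y2 gave 4 of 1449 (0.276%, 0.0753 to 0.705%). Without the YAP transgene N2 gave 4 of 1852 (0.216%, 0.0589 to 0.552%) and E2 gave 1 of 1097 (0.0912%). N1 gave 0 of 961 cells and E1 0 of 1014, which allows shares of up to 0.312% and 0.296% by a floor of 3 cells, with exact upper limits of 0.383% and 0.363%. The Clopper-Pearson intervals cover counting error only. The 2 EY libraries thus sat above all others, Y1 lay between, and Y2 overlapped N2 within counting error.

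**Figure D1:**
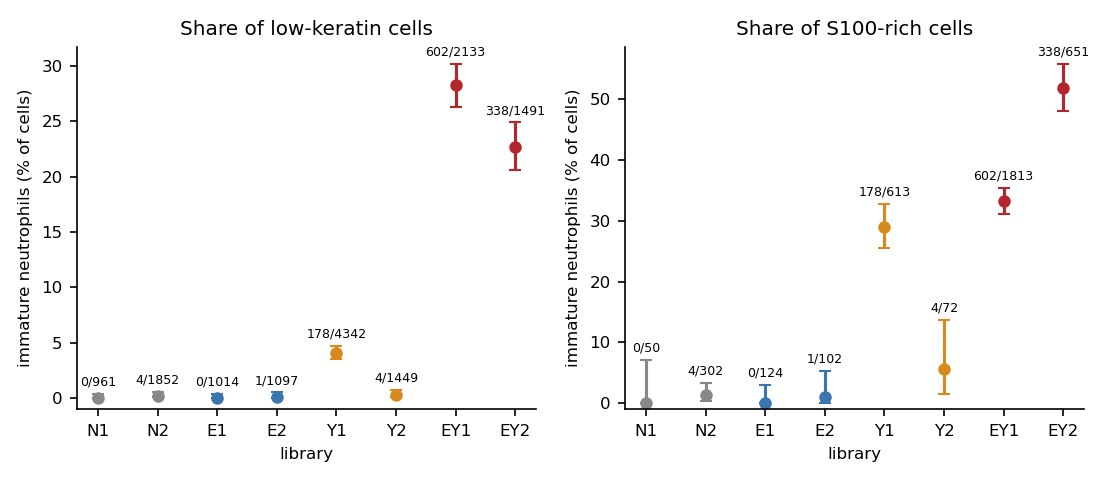
Immature neutrophils as a percentage of low-keratin cells (left) and of S100-rich cells (right) in each of the 8 libraries, with exact 95% intervals and the cell numbers above each point. EY1 and EY2 reached 28.2% and 22.7% of low-keratin cells, Y1 4.10%, and the other 5 libraries stayed at or below 0.276%.

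With the YAP transgene the mean share was 13.8 ± 13.7% of low-keratin cells (SD, n = 4 libraries), and without it 0.0768 ± 0.102% (n = 4). All 4 libraries with the transgene were above all 4 without it, a difference of 13.7 percentage points, with a two-sided exact permutation p of 0.0286, the smallest that 70 labellings allow, and 0.0571 after Benjamini-Hochberg adjustment over 4 tests. The order of Y2 and N2 rests on 4 cells in each. A minimum of 1000 genes per cell, 4 of 5 granule genes, a keratin limit of 5% or all cells as the denominator each left 3 of 4 libraries above, with p = 0.0571 by the same exact test. With E6-E7 the mean share was 12.7 ± 14.8% against 1.15 ± 1.97% without it (exact permutation p = 0.400, adjusted p = 0.514, n = 4 each). Leaving out 1 library gave differences of 8.94 (without EY1) to 18.3 points (without Y2) for the YAP transgene and 6.44 to 15.8 points for E6-E7.

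Among cells rich in S100a8 and S100a9, which include other neutrophils and monocyte-like cells, the share with at least 3 granule genes was 29.0% in Y1 (178 of 613), 33.2% in EY1 (602 of 1813) and 51.9% in EY2 (338 of 651). It was 5.56% in Y2 (4 of 72), 1.32% in N2 (4 of 302) and 0.980% in E2 (1 of 102), and N1 and E1 had no such cell among 50 and 124. EY2 held the highest share here although EY1 held the highest share of low-keratin cells. In EY1 the S100 limit of the rule passed 1813 of 2133 low-keratin cells. Of these, cells without any granule gene of the rule held a median of 0.264% of UMIs in S100a8 and S100a9. With at least 30 S100a8 and S100a9 UMIs per cell the share was 32.8% in Y1, 50.7% in EY1 and 57.3% in EY2. With at least 2% of UMIs in both genes together and a UMI of Csf3r or Cxcr2 it was 41.1%, 62.6% and 70.8%. At the S100 limit of the rule the means were 29.9 ± 19.1% with and 0.576 ± 0.680% without the YAP transgene (exact permutation p = 0.0286, adjusted p = 0.0571, n = 4 libraries each). For E6-E7 the difference was 12.5 points (exact permutation p = 0.514, n = 4 each), and 2.42 to 19.7 points with 1 library left out.

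The members were spread over the number of granule genes that the rule counts. All 5 genes were found in 367 cells, 4 in 384 and 3 in 376, while 325 S100-rich cells just outside the rule held 2. Ngp was found in 99.5% of members, Cd177 in 96.5%, Ly6g in 79.1%, Camp in 65.0% and Ltf in 59.1%. Camp-bearing cells were 44.4% of members in Y1, 60.6% in EY1 and 83.4% in EY2, and Ltf-bearing cells were 28.1%, 53.0% and 86.4%. Ly6g, a surface antigen of mouse neutrophils, ran the other way, at 95.5%, 85.2% and 59.2%. The median share of S100a8 and S100a9 in a cell's UMIs was 1.84%, 4.18%, 20.9%, 25.5%, 30.7% and 33.8% in S100-rich cells with 0 to 5 of the granule genes. The step between 1 and 2 granule genes was the largest, so that cells just outside the rule were closer to members than to cells with none. These values describe the selection and carry no test.

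The mRNA of the members was dominated by the S100 calcium-binding proteins that neutrophils store in the cytosol. S100a8 stood at 146940, 173880 and 195060 CPM (UMIs of the gene per 1000000 UMIs of the class, summed over its cells) in Y1, EY1 and EY2. Ngp, which encodes a cathelicidin-related granule protein, stood at 4391, 8397 and 15828 CPM, Camp at 584, 886 and 2592 CPM and Ltf at 263, 662 and 2585 CPM. All 3 genes were lowest in Y1 and highest in EY2. Cd177, a glycoprotein of neutrophil membranes, stood at 530, 640 and 876 CPM, and Ly6g at 850, 547 and 315 CPM. Granule mRNA thus differed by up to 9.84 times (Ltf) between the libraries while Ly6g went the opposite way.

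Among specific granule genes that the rule did not use, Lcn2 (an iron-siderophore binding protein) stood at 9697, 12936 and 20699 CPM in Y1, EY1 and EY2. Chil3, a chitinase-like protein of myeloid cells, stood at 1046, 3939 and 9574 CPM, and at 4595, 6789 and 8652 CPM in S100-rich cells of the same libraries with none of the 5 granule genes. The peptidoglycan-binding Pglyrp1 stood at 1917, 2462 and 3449 CPM. These values followed the order of Ngp, Camp and Ltf over the 3 libraries. Haptoglobin (Hp) stood at 1789, 1774 and 2320 CPM. Of later granules, the collagenase Mmp8 stood at 1352, 1848 and 1729 CPM and the gelatinase Mmp9 at 693, 572 and 501 CPM.

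Azurophil granule genes were at or near 0. Mpo gave 0, 0 and 2 UMIs in all members of Y1, EY1 and EY2, Elane gave none, and Ctsg gave 0, 1 and 0, which allows up to 2.10, 0.529 and 1.81 CPM for a count of 0. Prtn3 was found at 21.7, 10.0 and 14.5 CPM, Prss57, a further azurophil protease gene, at 2.10, 1.94 and 2.42 CPM (3, 11 and 4 UMIs), and Ms4a3, a gene of granulocyte and monocyte progenitors, at 0, 1 and 3 UMIs. The proliferation genes Mki67 and Top2a stood at 11.9, 9.16 and 9.07 CPM and at 18.9, 5.81 and 13.9 CPM. Cebpe mRNA, the factor of specific granule genes, stood at 8.39, 11.6 and 30.8 CPM, and Gfi1 at 3 UMIs or fewer. The markers of the label, Ngp, Camp, Ltf, Cd177, Ly6g and Retnlg, were all present, and mRNA of the promyelocyte stage was low throughout.

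Genes of the mature set were present beside the granule genes. A Cxcr2 UMI was found in 88.8, 84.4 and 54.1% of members of Y1, EY1 and EY2, and a Csf3r UMI in 83.7, 71.6 and 31.7%. The name immature thus stands for the rule and not for a stage shown by these genes, above all in Y1. Il1b stood at 7140, 4712 and 1593 CPM, the chemokine receptor Cxcr2 at 590, 432 and 191 CPM, the G-CSF receptor Csf3r at 291, 199 and 83.4 CPM, and histidine decarboxylase (Hdc) at 1231, 997 and 617 CPM. Each was highest in Y1 and lowest in EY2, the reverse of Lcn2 and Chil3. Retnlg, a resistin-like neutrophil gene and a marker of the label, stood at 28619, 24858 and 18824 CPM. The chemokine Cxcl2 stood at 23473, 18485 and 15322 CPM and Wfdc17, a gene of the whey acidic protein family, at 12796, 13620 and 5937 CPM. Arg1, the arginase of suppressive myeloid cells, stood at 2 to 3 CPM, and the nitric oxide synthase Nos2 at 114, 203 and 114 CPM.

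**Figure D2:**
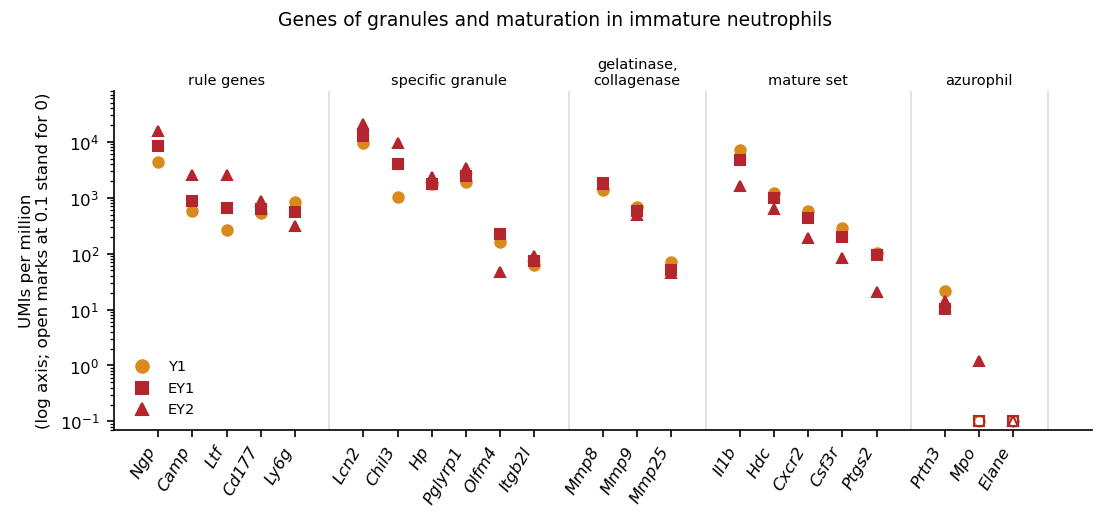
Summed expression in immature neutrophils of Y1, EY1 and EY2 in CPM on a log axis, grouped by role, 1 mark per library. Ngp, Camp, Ltf, Lcn2 and Chil3 lay highest in EY2 and Il1b, Hdc, Cxcr2 and Csf3r highest in Y1, while Mpo and Elane lay at or near 0.

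Y1, EY1 and EY2 were the only libraries with at least 10 members, so no arm without the YAP transgene and no second library of Y could enter a gene test, and effects of the YAP transgene and of E6-E7 within the members are given as values only. A comparison of the 2 EY libraries with Y1, added after seeing the data and with 1 residual degree of freedom, called 13 of 6455 genes (0.201%), 7 higher in EY (0.108%) and 6 lower (0.093%), by edgeR's quasi-likelihood test at an adjusted p under 0.05, and 1 by DESeq2, while 207 had an unadjusted p under 0.05. The 13 included all 4 haemoglobin genes, called higher although they were high in EY1 members alone, so that nothing further is read from these calls. Hbb-bs stood at 1118 CPM in EY1, 1.21 CPM in EY2 and 43.3 CPM in Y1. The lone Y library is assumed to vary like the EY pair, and library and genotype cannot be told apart here.

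To describe how the members differ among themselves, the cells of each library were ranked by the share of Ngp, Camp, Ltf, Cd177 and Ly6g in their UMIs and split in 3 equal groups, and the highest (granule-rich) was set against the lowest (granule-poor) of the same library. There were 59 granule-poor and 60 granule-rich cells in Y1, 200 and 201 in EY1, and 112 and 113 in EY2. In granule-rich members other granule genes and oxidase genes were higher, and inflammatory cytokine genes were lower. The ranking used genes of the rule, so these differences describe what went with their level and are no independent evidence of the cells' stage. The median granule gene share rose by construction, from 0.145 to 0.856% in Y1, 0.234 to 1.66% in EY1 and 0.884 to 3.11% in EY2. Of 3407 genes tested, 221 were higher and 289 lower (15% called, edgeR with library as a block, adjusted p under 0.05). Without EY1 the count was 64 and without Y1 338, against 510, and DESeq2 called 130.

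Lcn2 stood at 5914, 8150 and 16971 CPM in granule-poor members of Y1, EY1 and EY2 and at 13917, 17059 and 24062 CPM in granule-rich ones. It was higher in granule-rich members of each library, by 2.29-fold (log2 SE 0.18, adjusted p = 0.000212, edgeR's quasi-likelihood test, which scales by trimmed mean of M-values). All 6 specific granule genes tested were called higher, against 6.49% of all genes tested, with a median log2 fold change of 1.23 beside -0.05 for all genes. Chil3 went from 683 to 1853, 2980 to 5332 and 6855 to 11969 CPM. Itgb2l, a neutrophil beta-2-like integrin, had the largest difference of the list (3.82-fold). Olfm4, which marks a subset of neutrophils, did not move one way, at 83.1 and 236 CPM in Y1, 110 and 289 in EY1, but 68.1 and 40.0 in EY2. Without EY1 none of the 6 was called, at a median of 1.17, against 0.554% of all genes higher. Without Y1 all 6 were, against 3.12%.

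Of the gelatinase granule and collagenase genes, 3 of 5 were called higher, against 6.49% of all genes: Mmp9 by 2.13-fold, Mmp25 by 2.20-fold and Mmp8 by 1.56-fold. Of the NADPH oxidase, the complex that makes superoxide, 5 of 6 were higher, against the same share of all genes: Cybb by 2.30-fold, Ncf1 by 1.81-fold, Cyba by 1.66-fold, Ncf4 by 1.61-fold and Rac2 by 1.46-fold. The myeloid factor Spi1 (PU.1) was higher by 1.36-fold, and Runx1, which acts in earlier progenitors, was lower by 1.97-fold. Further genes chosen by size were Serpinb1a, a serpin of neutrophil proteases (log2 fold change 1.97), Aldh2 (1.65), Adpgk (1.80), Ceacam10 (1.52), Plbd1 (1.47), Syne1 (1.35) and lysozyme Lyz2 (1.33). Serpinb1a stood at 54 to 233 CPM in granule-poor and at 269 to 570 CPM in granule-rich members, with no overlap between them.

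Cytokine and chemokine genes were lower in granule-rich members, 8 of 11 against 8.48% of all genes, at a median log2 fold change of -1.11. Il1b went from 10014 to 4177 CPM in Y1, 6835 to 2877 in EY1 and 2652 to 718 in EY2, 2.29-fold lower (adjusted p = 8.27e-05, edgeR). Il1a was 3.4-fold lower, Csf1 2.48-fold, Cxcl3 2.33-fold, Il1rn 2.19-fold, Ccl3 2.16-fold, Ccl4 2.0-fold and Cxcl2 1.46-fold. Ccl6 (log2 fold change -0.65, adjusted p = 0.0599), Tnf (-0.28, adjusted p = 0.247) and Osm (0.10, adjusted p = 0.727) did not pass the edgeR test. Of the mature set 4 of 13 were lower, namely Ptgs2 (the inducible prostaglandin synthase, 5.58-fold), Il1b, Ccrl2 (1.85-fold) and Clec4d (1.46-fold). Cxcr2 (1.11-fold higher, adjusted p = 0.531), Hdc (1.03-fold lower, adjusted p = 0.890) and Csf3r (1.33-fold lower, adjusted p = 0.115) did not pass the edgeR test.

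Genes of hypoxia and glycolysis were lower in 6 of 11 cases, against 8.48% of all genes: Bnip3 by 2.98-fold, Vegfa by 2.04-fold, Hk2 by 1.89-fold, Tpi1 by 1.66-fold, Pfkl by 1.63-fold and Slc2a1 by 1.59-fold. The glycolytic genes Pgk1, Ldha and Gapdh were at 1.12-, 1.15- and 1.24-fold and did not pass. Of suppressor-associated genes Tgfb1 (2.94-fold), Cd274 (1.82-fold) and Nos2 (1.56-fold) were lower, 3 of 8 tested, against the same share of all genes. Of genes of the kind that tissue dissociation induces, 4 of 6 tested were lower too, against the same share of all genes. These were the immediate early genes Egr1 (1.53-fold), Dusp1 (1.44-fold) and Junb (1.34-fold) and the heat-shock gene Hspa1a.

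Markers of antigen-presenting cells and some of macrophages were lower in granule-rich members. The largest falls were Apoe (log2 fold change -4.65), H2-Ab1 (-4.22), Ccl5 (-4.19), Cd74 (-3.74), H2-Aa (-3.63), H2-Eb1 (-3.38), S100a4 (-2.80) and Saa3 (-2.70), genes of macrophages, antigen-presenting cells and T cells. Summed markers of dendritic or Langerhans cells stood at 2888, 1307 and 109 CPM in granule-poor members of Y1, EY1 and EY2 and at 156, 54.8 and 40.0 CPM in granule-rich ones, with 2 of the 5 markers at 0 in each. Of 8 monocyte or macrophage markers 4 were called lower, against 8.48% of all genes, and Ly6c2 higher. Their sum stood at 1181, 1063 and 1334 CPM in granule-poor and 620, 1162 and 783 CPM in granule-rich members, without one direction. Of 4 epithelial markers tested none was called, with sums of 281, 260 and 1103 CPM against 225, 202 and 753 CPM. Cells with no UMI of Csf1r, Cd3e, Trac or C1qa and at most 1 of Cd74 made up 64.4, 76.5 and 92.9% of granule-poor and 78.3, 89.1 and 97.3% of granule-rich members. With those cells alone 341 genes were called. All 6 specific granule genes were higher, against 5.12% of all genes, and 10 of 11 cytokine genes lower, against 5.93%. Cd74 stood at a log2 fold change of 0.11 there, which is fixed in part by the limit of 1 Cd74 UMI per cell. Depth moved with the split as well, at median UMIs of 6491, 8067 and 4195 in granule-poor and 8509, 11433 and 5711 in granule-rich members. Among cells of 3000 to 8000 UMIs 91 genes were called. There 5 of 6 specific granule genes were higher, against 1.66% of all genes, and 8 of 11 cytokine genes lower, against 2.22%.

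**Figure D3:**
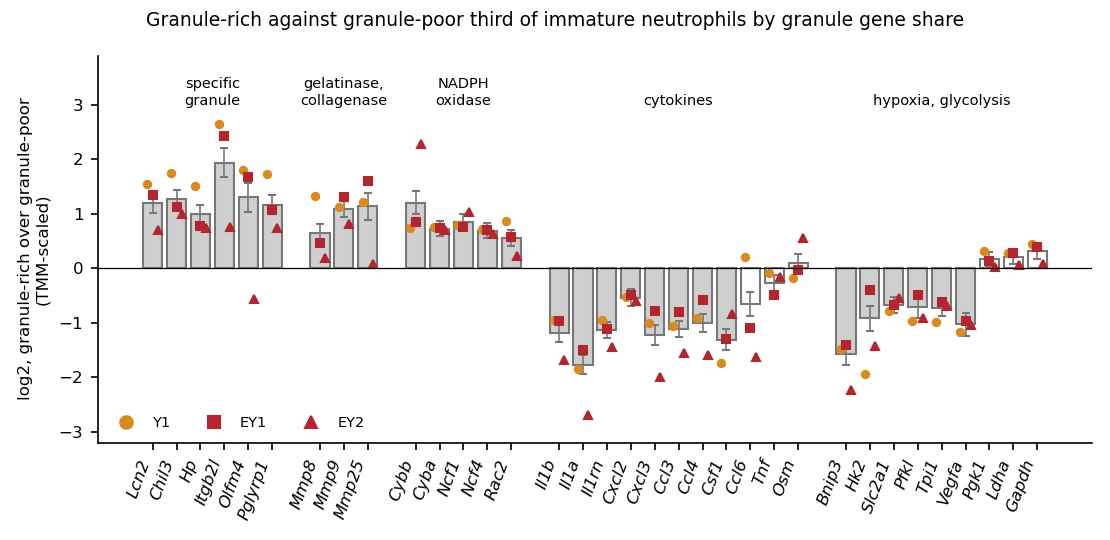
Log2 ratio of granule-rich over granule-poor immature neutrophils, for genes of 5 lists. Bars give the edgeR estimate with its standard error, grey where the adjusted p was under 0.05 and white otherwise, and marks give each library after the same scaling. The specific granule and oxidase marks lie above 0 in every library apart from Olfm4 in EY2, and the cytokine marks below 0 for the 8 genes called, whereas Ccl6 in Y1 and Osm in EY2 lie above it.

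The scaling bears on these splits. The median share of S100a8 and S100a9 in a cell's UMIs was 23.6, 23.5 and 31.1% in granule-poor and 32.1, 33.3 and 35.7% in granule-rich members of Y1, EY1 and EY2, and its part in the effect of the scaling was not tested. With library totals in place of the trimmed mean factors the median of all genes moved from -0.05 to -0.33 and 95 genes were called higher and 746 lower, that is 11.3% of calls higher in place of 43.3%. All 6 specific granule genes were still called higher (median 0.95), against 2.79% of all genes, and 10 of 11 cytokine genes lower, against 21.9%.

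Members were then set against the neutrophils next to them, called granule-low here, which had at least 15% of their UMIs in S100a8 and S100a9 but held 0 to 2 of the 5 granule genes. There were 161 of these in Y1, 171 in EY1 and 63 in EY2, at median UMIs of 4964, 4115 and 3524. This comparison was also added after seeing the data. Granule-low cells held an Ngp UMI in 44.7, 62.6 and 81.0% of cases in Y1, EY1 and EY2. Both classes were chosen by granule genes, so differences in other granule genes are no independent evidence of the cells' stage. On simulated counts edgeR found 43% of changes of 1 on the log2 scale here, so that few calls do not show likeness. Of 5049 genes tested 91 were higher and 101 lower in members (3.8% called). The count was 94 without EY1, 125 without EY2 and 385 without Y1, and no gene was called without the library block, where 321 had an unadjusted p under 0.05 by edgeR. DESeq2 called 86.

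Of 6 specific granule genes 3 were higher in members, against 1.8% of all genes: Itgb2l by 4.92-fold, Pglyrp1 by 2.31-fold and Lcn2 by 1.55-fold. Pglyrp1 stood at 1917, 2462 and 3449 CPM in members of Y1, EY1 and EY2 and at 883, 1059 and 1771 CPM in granule-low cells, higher in members of each library. Hp (1.54-fold, adjusted p = 0.0546) and Chil3 (1.21-fold, adjusted p = 0.646) did not pass the edgeR test. Chil3 stood at 482, 6482 and 8669 CPM in granule-low cells, so that the difference between libraries was larger than that between the classes. Mmp9 (2.52-fold) and Mmp25 (2.28-fold) of the 5 gelatinase and collagenase genes and Cybb (1.89-fold) of the 6 oxidase genes were higher. By size the leading rises were Serpinb1a (log2 fold change 1.91), Limd2 (1.54), Aldh2 (1.53), Ceacam10 (1.48) and Syne1 (1.42), besides H2-Aa (1.65), H2-Ab1 (1.60) and Cd74 (1.59).

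The 3 antigen-presentation genes turned direction with the choice of cells. Without cells that hold markers of other types H2-Aa stood at -0.65, H2-Ab1 at -0.92 and Cd74 at -0.60 on the log2 scale. That choice limits Cd74 itself to 1 UMI per cell, so its value there is fixed in part by the selection. Cd74, the invariant chain of antigen presentation, stood at 561, 229 and 103 CPM in members of Y1, EY1 and EY2 and at 180, 66.4 and 69.8 CPM in granule-low cells, with members above in each library.

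Lower in members than in granule-low cells were 5 of 11 cytokine genes, against 2% of all genes: Il1rn by 1.87-fold, Csf1 by 1.84-fold, Ccl3 by 1.74-fold, Cxcl3 by 1.69-fold and Ccl6 by 1.67-fold. Ccl3 stood at 830, 796 and 416 CPM in members and at 1642, 1174 and 964 CPM in granule-low cells. Ptgs2 (1.97-fold), Nos2 (1.90-fold), Runx1 (2.10-fold), Tpi1 (1.87-fold) and Vegfa (1.83-fold) were lower too. Il1b (1.5-fold lower, adjusted p = 0.118), Csf3r (1.26-fold lower, adjusted p = 0.451), Cxcr2 (1.11-fold higher, adjusted p = 0.762) and Hdc (1.18-fold higher, adjusted p = 0.622) did not pass the edgeR test. The leading falls by size were Fn1 (log2 fold change -2.98), the acute-phase gene Saa3 (-2.68), F10 (-1.88), Fam162a (-1.57), the hypoxia-induced Bnip3 (-1.49), metallothionein Mt1 (-1.45), Manf (-1.42) and Ero1l (-1.41). Saa3 stood at 202, 1374 and 680 CPM in members and at 1459, 4050 and 10523 CPM in granule-low cells. Fn1 and Saa3 are also genes of monocytes and macrophages.

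Libraries without the YAP transgene held too few immature neutrophils to test, so members of Y1, EY1 and EY2 were compared with the neutrophils that those libraries did hold. These granule-negative neutrophils had none of the 5 granule genes, at least 2% of UMIs in S100a8 and S100a9 and a UMI of Csf3r or Cxcr2, and numbered 26 and 219 in the N libraries (N1, N2) and 91 and 55 in the E libraries (E1, E2). Class, YAP transgene and depth cannot be told apart in this comparison, since median UMIs were 1753, 2601, 1522 and 3391 in the granule-negative cells and 4827 to 9361 in members. Of 3908 genes tested 556 were higher and 627 lower in members (30.3% called). Without N2 the count was 708. With library totals in place of trimmed mean factors the median of all genes moved from 0.04 to -0.51 and 17.7% of calls were higher in place of 47.0%.

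Retnlg gave 3210 CPM in N1 and 2300 in N2, and 3339 CPM in E1 and 1455 in E2, in granule-negative cells, and 28619, 24858 and 18824 CPM in members, with no overlap. The difference was 13.6-fold (log2 SE 0.30, adjusted p = 1.81e-05, edgeR). Lcn2 stood at 443 to 696 CPM in granule-negative cells, and was 38.2-fold higher in members, Mmp8 at 21.1 to 118 CPM and 30.2-fold higher, and Pglyrp1 at 518 to 866 CPM and 5.49-fold higher. All 6 specific granule genes were called higher, against 14.2% of all genes, the others being Chil3, Itgb2l, Olfm4 (3.72-fold) and Hp (3.0-fold). Both classes were again chosen by granule genes, so these rises are no independent evidence of the cells' stage. Chil3 gave a single UMI of 951310 in the granule-negative cells and a mean of 4853 CPM in members, which is 4617 times as much (exact Poisson interval 829 to 182300). Nos2, Ggt1 and F13a1 gave no UMI there and were at least 45.5-fold, 55.9-fold and 32.0-fold higher in members, against a floor of 3 UMIs over the group. Prok2, a myeloid chemoattractant, gave 2 UMIs and a ratio of 135 (37.3 to 1112), Acvrl1 2 UMIs and a ratio of 90.5 (25.1 to 748), Serpinb1a 4 UMIs and a ratio of 59.7 (23.3 to 219), and Lipg 4 UMIs and a ratio of 40.8 (15.9 to 150). These ratios use plain CPM, with granule-negative UMIs pooled over the N and E libraries. Their intervals cover counting error of those UMIs only and not the spread between libraries.

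Genes of the mature set were mostly lower in members or did not pass, 5 of 13 lower against 16% of all genes. Csf3r stood at 1161 and 1364 CPM in the N pair and 1166 and 1404 in the E pair and at 83.4 to 291 CPM in members, but granule-negative cells were required to hold a UMI of Csf3r or Cxcr2 and members were not, so that this difference is fixed in part by the selection. Without these 2 genes 4 of 11 were lower. Ptgs2 stood at 824 to 1250 CPM and was 10.1-fold lower, Ccrl2 was 7.32-fold lower, Il1b (18959 to 24928 CPM) 3.55-fold and Clec4d 2.74-fold lower. Il1r2, a decoy receptor for interleukin 1, was 2.07-fold higher. Cxcr2 (1.55-fold lower, adjusted p = 0.144) and Hdc (1.58-fold lower, adjusted p = 0.184) did not pass the edgeR test. The factor Cebpd was 3.42-fold lower, and the gelatinase-granule transporter Slc11a1 2.22-fold lower.

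By size the leading falls were Clec4n (log2 fold change -4.68), Treml4 (-4.38), Cxcr4 (-4.29), Dusp2 (-3.90), Fgl2 (-3.89), Nr4a3 (-3.73), Ptgs2os2 (-3.57) and Ninj1 (-3.53). Cxcr4, a receptor that holds neutrophils in the marrow and returns with ageing, stood at 374 to 480 CPM in granule-negative cells and at 22.4, 21.1 and 1.21 CPM in members. Of 9 interferon-response genes tested 3 were lower, against 16% of all genes, namely Rsad2 by 9.64-fold, Isg15 by 5.33-fold and Irf7 by 2.29-fold. Ifitm3 was 2.13-fold higher. Genes that tissue dissociation induces, a list that also holds heat-shock genes, were lower in 4 of 7 cases, against the same 16% of all genes. The 4 were the immediate early genes Dusp1 (5.16-fold), Fos (5.09-fold), Egr1 (2.65-fold) and Junb (2.48-fold). Of the cytokine list Csf1 (6.99-fold), Il1b, Il1rn (3.34-fold), Ccl4 (1.97-fold) and Ccl3 (1.83-fold) were lower and Cxcl3 2.85-fold higher. Ccl3 and Ccl4 turned direction at a minimum of 1000 genes per cell (log2 fold change 0.10 for each).

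Glycolytic genes were higher in members, 5 of the 11 hypoxia and glycolysis genes tested, against 14.2% of all genes. Ldha stood at 209 to 291 CPM in granule-negative cells and at 601, 748 and 855 CPM in members, 4.33-fold higher after scaling, with Gapdh 4.11-fold, Tpi1 2.96-fold, Eno1 2.25-fold and Pgk1 2.22-fold higher. Wfdc17 was 8.26-fold higher, from 1164 to 2872 CPM to 5937 to 13620 CPM, whereas Cd274 (4.05-fold) and Cd84 (2.76-fold), also of the suppressor-associated list, were lower. Cyba (1.94-fold) and Rac2 (2.27-fold) of the oxidase and the integrin Itgam (1.78-fold) were higher.

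**Figure D4:**
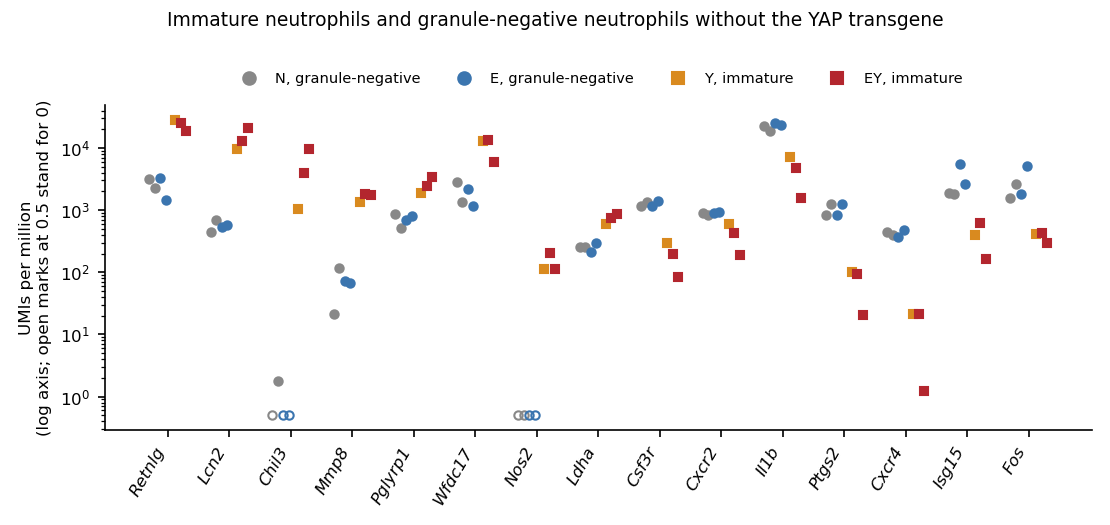
CPM on a log axis in granule-negative neutrophils of N and E libraries (circles) and in immature neutrophils of Y1, EY1 and EY2 (squares), 1 mark per library. Retnlg, Lcn2, Chil3, Mmp8, Wfdc17 and Nos2 lay higher in members and Csf3r, Il1b, Ptgs2, Cxcr4, Isg15 and Fos lower, with no overlap, Csf3r in part through the selection of the granule-negative cells.

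Granule-low neutrophils of Y1, EY1 and EY2, set against the same granule-negative cells in place of the members, gave 438 calls among 1913 genes, of which 394 were also called for the members. There 3 of 5 specific granule genes and 5 of 10 glycolysis genes were called higher, against 9.93% of all genes. With cells thinned to 500 UMIs before summing, 395 of 1080 genes were called, all 5 specific granule genes tested higher against 17.8% of all genes. Both classes were still chosen at full depth, so that the gap in depth remains in the choice of cells.

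A comparison with S100-rich cells of the same 3 libraries that held none of the 5 granule genes called 1325 genes higher and 1151 lower of 6827 (36.3%). That class was not made up of neutrophils alone: in Y1, EY1 and EY2 it held Csf3r in 46.1, 18.2 and 17.9% of cells against 83.7, 71.6 and 31.7% of members, and Csf1r in 53.0, 42.0 and 57.1% against 10.7, 7.97 and 2.07%. Of 8 monocyte or macrophage markers 7 were lower in members, against 16.9% of all genes. The leading falls were Ccl24 (log2 fold change -6.08), Arg1 (-5.58), Saa1 (-4.70), Ptges (-4.22), Fn1 (-4.18), Sdc4 (-4.07), Dab2 (-3.95) and Lgmn (-3.77). The leading rises were Itgb2l, which gave no UMI in the class and was at least 220-fold higher, then Ceacam10 (log2 fold change 8.69), Retnlg (7.61), Lipg (7.33), Prok2 (7.30), Mmp9 (6.87), Cstdc5 (6.84) and Ggt1 (6.56). Of the neutrophil lists 5 of 6 specific granule, 4 of 5 gelatinase or collagenase, 9 of 13 mature, 7 of 8 migration and 5 of 6 oxidase genes were higher in members, against 19.4% of all genes. Both classes were chosen by the 5 granule genes, so rises of other granule genes are no independent evidence of the cells' stage. With library totals the split was 495 higher and 3824 lower, 11.5% of calls higher in place of 53.5%, the median of all genes moving from -0.06 to -0.96.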

How the data were processed

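Single-cell 3′ RNA-seq (10x Genomics) of tongue epithelium was analysed from 8 deposited matrices of UMI counts per gene and barcode, which the authors made with Cell Ranger (5.0.0 in the file headers, build mm10) and left unfiltered on quality beyond its cell calling. The kit is version 2 in the labels and version 3.1 in the study's methods. Genotypes came from the labels, and replicate numbers only name the 2 libraries of a genotype in accession order. The members and all gene lists were chosen with earlier results of these data known. Genes in the rule were left out of every count of called genes.

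Mean shares were compared over libraries by exact permutation of the genotype labels, two-sided. Counts were summed per library and class, sums of under 20 cells were left out, and genes were tested with edgeR 4.0.16 (quasi-likelihood, filterByExpr, TMM factors, library as a block for classes of the same libraries), with Benjamini-Hochberg adjustment over all genes tested and a threshold of 0.05. DESeq2 1.42.0 was an alternative. The planned fits of YAP transgene and E6-E7 within members lacked libraries, and neither they nor their alternatives were run. The comparisons of granule-rich with granule-poor members, of granule-low and of granule-negative neutrophils and of EY with Y1 were added after seeing the data, as were the scaling without TMM factors and the limits on other cell types and on depth. CPM values printed are plain, and folds come from the scaled fit. Ratios with a Poisson interval and folds given as at least a value use plain CPM. Genes named by size are the 8 largest rises and falls among called genes with at least 100 CPM in 1 arm that did not overlap between arms or had 1 direction in every library, leaving out rule genes, keratins, mitochondrial and ribosomal genes, unnamed models and sex-linked genes, and list genes are named by role. Some list genes are counted but not reported here by name. On simulated counts with 100 genes changed at each size, edgeR found 25% of changes of 1 and 86% of changes of 2 on the log2 scale for members against S100-rich cells without granule genes, 81% and 90% for granule-rich against granule-poor members, 43% and 86% for members against granule-low cells and 17% and 82% for members against granule-negative cells. In the same order, 5.1, 7.1, 3.0 and 5.7% of all calls on simulated counts fell on genes left unchanged, at the adjusted p threshold of 0.05. Gene positions came from GENCODE on GRCm38.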

Additional observations from a re-analysis of the deposited data

Results flagged for a closer look

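Of 63 groups of 4 libraries checked, 8 had a library far from the other 3 by Dixon's test, and chance flags about 1 in 20. The share of immature neutrophils among low-keratin cells of the N and Y libraries was 4.10% in Y1, with the other 3 between 0 and 0.276%. In granule-negative neutrophils of the 4 libraries without the YAP transgene, N2 was flagged for Chil3 (1.76 CPM), Prok2 (3.51 CPM), Acvrl1 (3.51 CPM) and Serpinb1a (7.03 CPM), where the other 3 libraries were at 0 and N2 gave 1 to 4 UMIs. Any gene with UMIs in 1 library alone is flagged, so the chance rate does not apply to these. Floors of 3 UMIs stood at 63.3 CPM in N1, 21.6 in E1 and 15.3 in E2, above the N2 values. N2 therefore cannot be said to differ for these genes. N1 stood apart for Clec4n (2534 CPM against 568 to 903) and Ninj1 (1140 CPM against 766 to 815), on 47357 UMIs in 26 cells. Cxcr2 was lowest in N2 (842 CPM against 907 to 919).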

How the results depend on the processing

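No share passed the adjusted threshold under any setting. The lowest adjusted p of the exact permutation tests was 0.0571, reached at the smallest p that the labellings allow. An adjusted p under 0.05 was therefore out of reach of these tests, whatever the shares. Leaving out 1 library gave 94 to 385 called genes for members against granule-low cells, 64 to 637 for granule-rich against granule-poor members, 708 to 1170 against granule-negative cells and 1675 to 2243 against S100-rich cells without granule genes. Against granule-low cells the count of 192 became 86 with DESeq2, 105 with library totals, 121 at 1000 genes per cell, 392 at 4 of 5 granule genes, 41 after thinning to 500 UMIs, 339 without cells holding other types' markers, 122 at 3000 to 8000 UMIs, 96 with a minimum of 4 cells per library and 0 without the library block. For granule-rich against granule-poor members 510 became 130 with DESeq2, 841 with library totals, 49 after thinning, 91 at 3000 to 8000 UMIs and 5 without the block. Against granule-negative cells 1183 became 454 at 1000 genes, 395 after thinning and 438 with granule-low cells in place of members. Against S100-rich cells without granule genes 2476 became 4319 with library totals and 188 after thinning, and 13 became 1 with DESeq2 for EY against Y1. Thinning left fewer genes to test, and the other causes were not tested.

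Values turned direction in these cases. Against granule-low cells, at 4 of 5 granule genes, without other types' markers and at 3000 to 8000 UMIs, H2-Aa stood at -0.42, -0.65 and -0.54, H2-Ab1 at -0.62, -0.92 and -0.73, and Cd74 at -0.26, -0.60 and -0.32. Between granule-rich and granule-poor members Olfm4 was -0.42 at 3000 to 8000 UMIs and Cd74 0.11 without other types' markers. The choice of cells without other types' markers limits Cd74 itself. Against granule-negative cells Ccl3 was 0.10 and Ccl4 0.10 at 1000 genes, and 0.14 and 0.035 with granule-low cells in place of members. No named gene turned direction with library totals. Libraries could not be paired across genotypes, because replicate numbers followed accession order and only named the libraries. Classes of the same library were paired through the library block. Low counts limit what is said of Y2, N2 and E2, with 4, 4 and 1 members.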

Other observations

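Other abundant transcripts of the immature neutrophils fell into interferon-induced transmembrane, lipid mediator and surface genes. Ifitm1, of the interferon-induced transmembrane family that blocks viral entry, stood at 7075, 6807 and 7589 CPM in members of Y1, EY1 and EY2, and its relative Ifitm6 at 4012, 4679 and 4820 CPM, with little difference between libraries. Cd14, a co-receptor for lipopolysaccharide, stood at 5576, 5432 and 3621 CPM, and Alox5ap, which serves leukotriene synthesis, at 3497, 3815 and 3209 CPM. G0s2, an inhibitor of lipolysis, stood at 3878, 2392 and 1345 CPM and Cebpb at 3364, 3306 and 1276 CPM, both lowest in EY2. Cstdc5, a cystatin-like gene, stood at 3791 CPM in Y1, 959 CPM in EY1 and 1690 CPM in EY2.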
